A study of Homo sapiens with 4 samples.

Results

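The genes described here encode the proteins of the mitochondrial ribosome. They are the protein-coding genes whose symbol is MRPS or MRPL followed by a number and, for a few, a letter from A to C, and they number 78 of the 58302 genes listed in the deposited tables. The cells were T24, an established human line from a bladder (urothelial) carcinoma, and polyadenylated RNA was read in 4 RNA-seq libraries. Control cells gave 2 libraries, and T24 cells edited with CRISPR/Cas9 to lose IGF2BP3, an RNA-binding protein whose targets include m6A-marked messenger RNAs, gave the other 2. No other allele, treatment or time point is named in the labels, and all 4 libraries share the T24 background. The edited cells are described as 1 stable line, and the labels do not tie the replicates to separate cultures or clones. The p-values therefore measure only the spread between these libraries, which may be technical. That spread was largely pooled over genes of like level and is not each gene's own.

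The mitochondrial ribosome translates the few messenger RNAs of the mitochondrial genome, all of which encode subunits of the respiratory chain and ATP synthase. Its ribosomal RNAs are transcribed inside the organelle, while every one of its proteins is encoded in the nucleus, made in the cytosol and imported. The small subunit reads the messenger RNA and the large subunit joins amino acids. Some of the proteins have bacterial counterparts and others are found only in mitochondria.

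By their place in the ribosome, 26 of the 78 genes encode small-subunit proteins and 51 encode large-subunit proteins. MRPS18A and MRPS30 carry the letter S but lie in the large subunit. MRPS36, a component of the 2-oxoglutarate dehydrogenase complex, was put in neither. Of the 77 ribosomal members, 48 have a bacterial counterpart and 29 are mitochondrial only. Each level is given in FPKM, reads per kilobase of transcript after division by library size, so levels of different genes are compared per length. The length that fits most values is that of the longest annotated transcript, so a long isoform lowers a gene's level.

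Expression of these genes is classically linked to nuclear factors that bind promoter elements, among them the ETS factor GABP (also called NRF2), NRF1 and YY1. Promoter windows of 250 bases before and 50 bases after the transcription start were taken from RefSeq (GRCh38.p14) and were found for 69 of the 78 members. The letters searched, on both strands, were CCGGAAG for ETS factors, TGCGCA (its own reverse complement) for the core of the NRF1 element, AAGATGGCG for YY1, GGGGCGGGG for the GC box and TATAAA for the TATA box. The ETS letters were in 29 of the 69 windows, or 42.0%, against 14.4% of the windows of 14887 protein-coding genes. The YY1 letters were in 13 windows, or 18.8%, against 2.81% of all. NRF1 core letters were in 14 windows, or 20.3%, against 10.9% of all. The GC box was about as frequent in members (23.2%) as in all genes (22.8%), and the TATA letters were in 2 member windows (2.90%) against 9.49% of all. No test was run on these shares, and a match is a description of the letters and not a bound site. The 14887 genes were taken whether or not they were expressed in these cells. A set of expressed genes was not compared, so the contrasts may not be particular to these members. In no member window did an ETS match share bases with a YY1 match.

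The stretches below show these matches in members whose levels are described further on. They lie on the gene's own strand, 5′ to 3′, and capitals mark the matched letters or their reverse complement. MRPS26, MRPL16 and MRPL52 were lower in both knockout libraries than in both controls, and MRPS22, MRPL48 and MRPS10 were higher. The ETS match stands in both sets, and the MRPS22 stretch holds it on both strands:
MRPS26 (chr20:3046004-3046032, plus strand): tccccgcgccgCTTCCGGggcacggtggc
MRPL16 (chr11:59810767-59810795, minus strand): agtgaacacaaCTTCCGGccccactgagc
MRPL52 (chr14:22829871-22829899, plus strand): ggccacgcctaCTTCCGGctaccccggct
MRPS22 (chr3:139343896-139343924, plus strand): tctataagggcCCGGAAGaCTTCCGGccc
MRPL48 (chr11:73787800-73787828, plus strand): aatttcagaagCTTCCGGaactaaaatga
MRPS10 (chr6:42217866-42217894, minus strand): ccgctgtaaccCCGGAAGcaatcctgaga

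The MRPS10 window holds a YY1 match as well, 3′ of its ETS match, and the MRPS18B window holds the NRF1 core and the YY1 letters close together. The NRF1 core is also shown for MRPS6, the member listed at 0 in both controls and well above 0 in both knockouts:
MRPS10, YY1 (chr6:42217833-42217861, minus strand): gggaccggcAAGATGGCGgcgcggacagc
MRPS18B, YY1 (chr6:30617854-30617882, plus strand): gcgtacgtcAAGATGGCGgcgtctgtatt
MRPS18B, NRF1 core (chr6:30617809-30617837, plus strand): ttcctgaagcaTGCGCAgttgcctttccg
MRPS6, NRF1 core (chr21:34073519-34073547, plus strand): ggcgcggcgtcTGCGCAgctgccagcgcc

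ETS matches numbered 39 in the 29 windows, 33 of them between 100 bases before and 50 bases after the start, with a median centre at position -19 from it. For YY1 the median centre was at position 12.5, and 13 of 14 matches lay in that span. ETS letters were in 44.0% of small-subunit windows and in 40.9% of large-subunit windows.

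The library totals by which the FPKM had been divided, worked out from the values, were 2162179 and 1870884 reads for the controls and 811823 and 1240207 reads for the knockouts, which is shallow. The reads recovered over all genes summed to 2177698, 1886182, 818921 and 1250485. Genes above 0 numbered 8856 and 11433 in the controls, where the knockouts had 7827 and 11127. IGF2BP3 was listed at 2.94 and 21.5 FPKM in the controls and at 0 and 0.190 FPKM in the knockouts. Its values were lower in both knockouts than in both controls, and the fitted difference of -3.89 ± 2.83 (SE, n = 2 per group) on the log2(FPKM + 0.5) scale did not pass the test (limma, Benjamini-Hochberg adjusted p = 0.955). With a test across the 11463 genes of a mean of at least 1 FPKM, 10 genes passed an adjusted p of 0.05, a share of 0.0872%. Of 14 urothelial and epithelial markers, 9 were listed at 0 in all 4 libraries, among them EPCAM, CDH1 and the uroplakins, while KRT8 and KRT18 reached 173 FPKM or more in every library and the mesenchymal marker VIM reached 172 FPKM or more. The epithelial list summed to 440 and 581 FPKM in the controls, against 1545 and 1163 FPKM in the knockouts. Most of that was KRT8 (266 and 397 against 1138 and 816 FPKM) and KRT18 (173 and 173 against 303 and 314 FPKM). The 4 mesenchymal markers summed to 183 and 186 FPKM against 325 and 384 FPKM, most of it VIM (177 and 172 against 267 and 372 FPKM). These sums therefore describe a few abundant genes and not the lists as a whole. No marker passed the test, and the part of these differences in the results below was not tested. The 5 leukocyte markers and both erythroid markers were listed at 0 in all 4.

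Summed over the 78 members, the level was 1523 and 2284 FPKM in the controls, against 1665 and 1549 FPKM in the knockouts. The highest sum was that of control 2, and the sum of control 1 lay below both knockouts, so the groups overlapped. In these bulk libraries fewer cells expressing a gene and less RNA per cell cannot be told apart. Small-subunit genes summed to 614 and 919 FPKM in the controls, against 827 and 544 FPKM in the knockouts. Large-subunit genes summed to 909 and 1365 FPKM in the controls, against 838 and 1002 FPKM in the knockouts. The groups overlapped for both subunits.

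The small subunit's sum divided by the large subunit's was 0.676 and 0.673 in the controls, where the knockouts had 0.987 and 0.543. The controls nearly coincided and lay between the knockouts. MRPS26 made up 61.7% and 29.8% of the small subunit's sum in the controls, where the knockouts had 2.91% and 16.3%. Without MRPS26 the ratio was 0.259 and 0.472 in the controls, where the knockouts had 0.958 and 0.455.

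**Figure D1:**
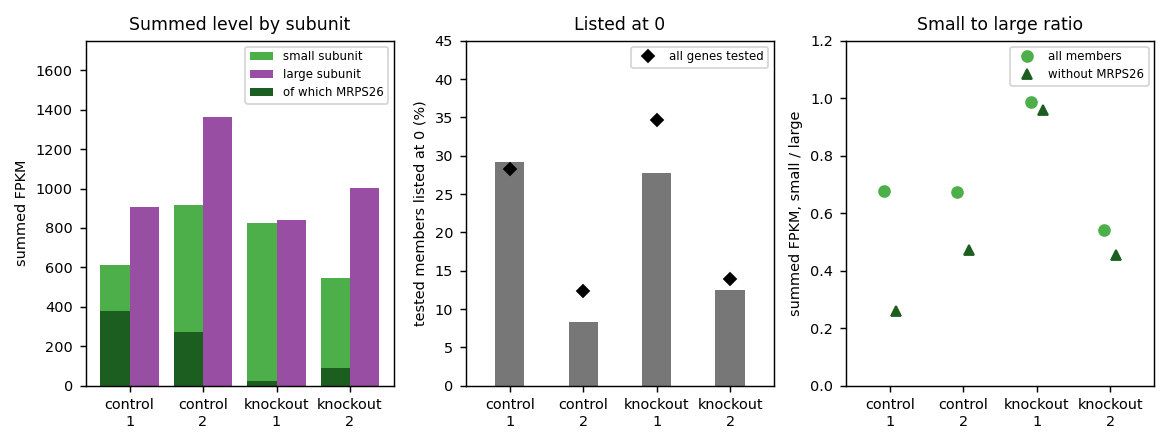
Left, summed FPKM of small-subunit (green, MRPS26 in dark green) and large-subunit genes (purple) in each library; middle, percent of the 72 tested members listed at 0 (bars) and of all 11463 tested genes (diamonds); right, the small to large ratio with and without MRPS26. Each bar or point is 1 library, and MRPS26 fills more of the small-subunit bar in both controls (61.7% and 29.8%) than in either knockout.

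Members listed at 0 numbered 26 and 12 in the controls, where the knockouts had 25 and 12. Control 1 and knockout 1 each lacked about as many, and so did control 2 and knockout 2. The count thus went with the library number and not with the group, and whether libraries of the same number share a batch was not tested. Large-subunit genes made up 15, 6, 17 and 10 of these zeros, in the order control 1, control 2, knockout 1, knockout 2, and small-subunit genes 10, 5, 7 and 2. MRPL33, MRPL43, MRPL46, MRPS21 and MRPS31 were at 0 in exactly control 1 and knockout 1. MRPS14 and MRPS6 were at 0 in exactly the 2 controls, and MRPL55 in exactly the 2 knockouts. Of the 78 members, 30 were above 0 in all 4 libraries, 30 were at 0 in 1 library, 10 in 2, 7 in 3 and 1, MRPS24, in all 4.

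These zeros stand against a background of zeros among all genes. Of the 72 members with a mean of at least 1 FPKM, 29.2% and 8.33% were at 0 in the controls, where the knockouts had 27.8% and 12.5%, against 28.3%, 12.3%, 34.7% and 13.9% of all tested genes. Control 1, the deepest library, had the most member zeros, and knockout 1, the shallowest, had 1 fewer. Thinned by calculation to the depth of the shallowest library, the expected zeros were 31.4 and 12.4 in the controls, where the knockouts had 25 and 12.8. As an upper bound of counting error on a count of 0, 3 reads were taken. For the median member they are worth 0.806 and 0.931 FPKM in the controls, against 2.15 and 1.40 FPKM in the knockouts. The spread between replicates goes beyond that bound, as the next values show.

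Many members were high in 1 library and at 0 in its replicate. Of the 51 members with at least 50 reads in 1 control, 15 were at 0 in the other control (29.4%), and of 38 such members in the knockouts 4 were at 0 in the other (10.5%). Among all genes the shares were 14.4% of 7572 and 16.7% of 6267. MRPL53 is the extreme, with 146 FPKM (368 reads) in control 1 and 0 in the other 3 libraries. The median member differed between the control libraries by 2.87 on the log2(FPKM + 0.5) scale and between the knockout libraries by 2.68, against 1.60 and 1.89 for all tested genes. The median size of the knockout against control difference was 1.72 for members and 1.38 for all genes. It is taken between means of 2 libraries, which vary less than single libraries. The sizes between and within groups are therefore not directly comparable. Across the 78 members, levels on the log2 scale correlated between libraries with r from 0.02 to 0.37, as a description over genes that share libraries and depth. For the control pair r was 0.28 and for the knockout pair 0.26. The highest r, 0.37, was that of control 2 with knockout 2, and the lowest, 0.02, that of control 1 with knockout 1. Over all tested genes r ran from 0.42 to 0.49.

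**Figure D2:**
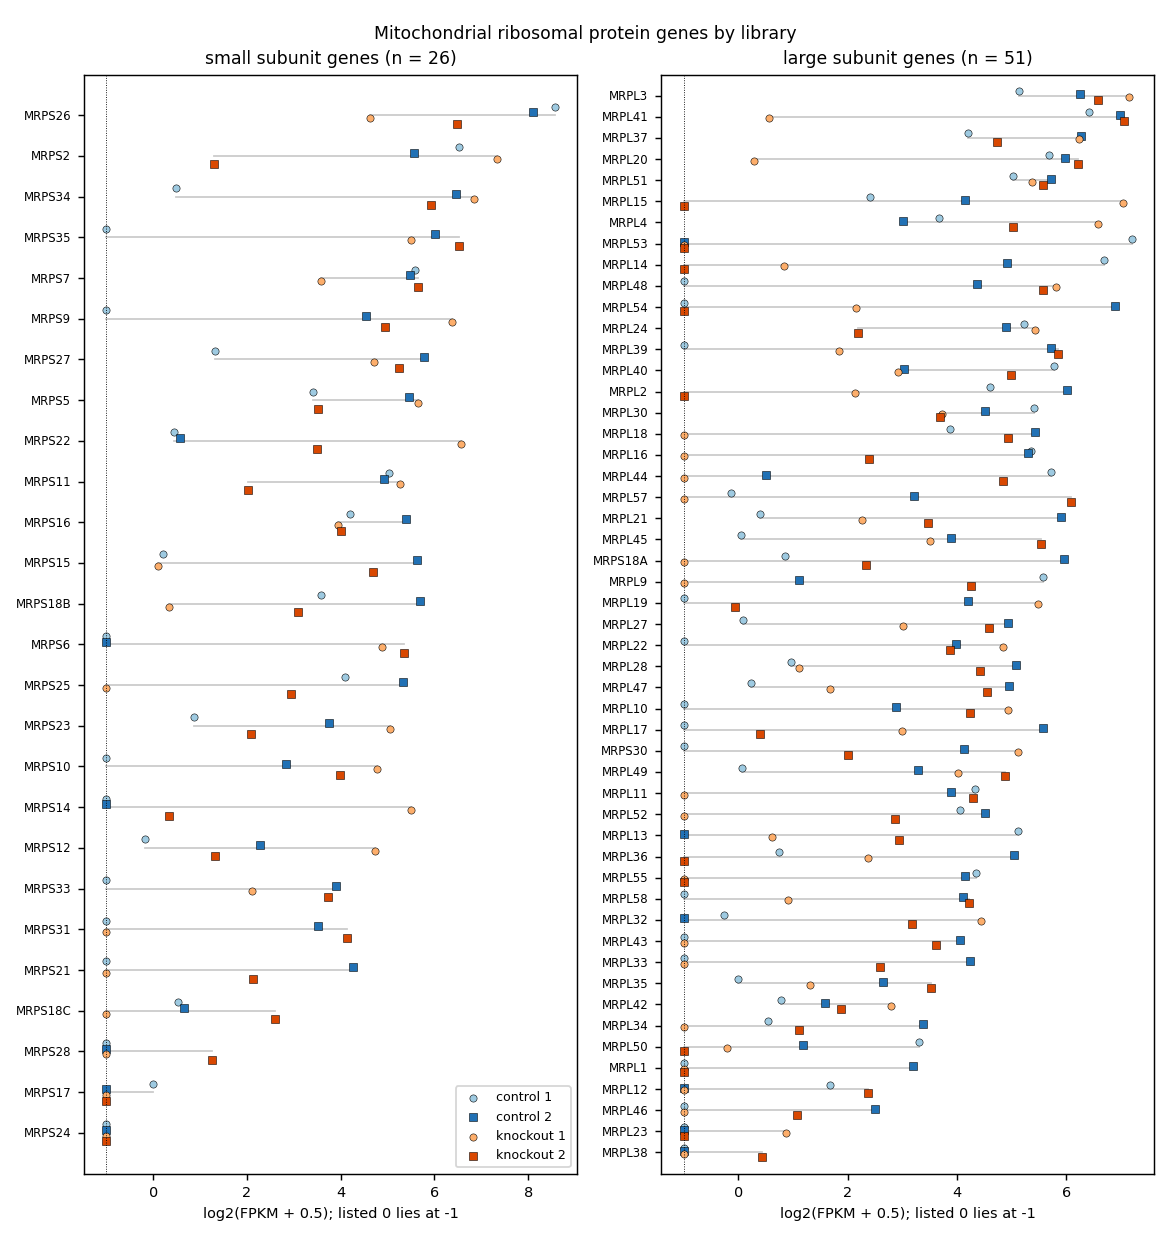
Level of each small-subunit (left, 26 genes) and large-subunit gene (right, 51 genes) as log2(FPKM + 0.5), with 1 symbol per library and genes ordered by mean FPKM. A listed 0 lies at -1 (dotted line), and the horizontal lines span the 4 libraries, wide for most members and narrow for MRPL51.

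Among small-subunit genes MRPS26, a protein with no bacterial counterpart, had the highest mean, 191 FPKM. Next came MRPS2, MRPS34, MRPS35 and MRPS7, with means of 75.5, 65.7, 49.99 and 38.2 FPKM. MRPS2, the counterpart of a bacterial protein on the back of the small subunit, was at 91.7 and 46.9 FPKM in the controls and at 161 and 1.97 FPKM in the knockouts. MRPS34 was at 0.889 and 87.9 FPKM in the controls and at 114 and 60.5 FPKM in the knockouts. MRPS35 was at 0 and 64.0 FPKM in the controls and at 45.02 and 91.0 FPKM in the knockouts. Each of these 3 thus had 1 library of 4 near or at 0 and the other 3 above 40 FPKM. MRPS7, whose bacterial counterpart starts assembly of the head of the small subunit, was at 47.7 and 44.2 FPKM in the controls and at 11.5 and 49.3 FPKM in the knockouts.

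Among large-subunit genes MRPL3, MRPL41, MRPL37, MRPL20 and MRPL51 had the highest means, 86.5, 85.9, 48.7, 46.8 and 43.0 FPKM. MRPL41 was at 84.7 and 126 FPKM in the controls and at 0.976 and 132 FPKM in the knockouts. MRPL20 was at 50.5 and 62.2 FPKM in the controls and at 0.728 and 73.8 FPKM in the knockouts. Both were low in knockout 1 only, with 1 read each, where 3 reads would be 2.93 FPKM for MRPL41 and 2.18 FPKM for MRPL20. That library was the shallowest, and the part of depth in these values was not tested. MRPL37, mitochondrial only, was at 17.8 and 76.4 FPKM in the controls and at 74.7 and 26 FPKM in the knockouts. MRPL51 was the steadiest member, at 32.2 and 52.0 FPKM in the controls, against 40.9 and 47.0 FPKM in the knockouts, a range of 1.61-fold. MRPS16, MRPL30, MRPL3 and MRPL37 followed, with ranges of 2.77-fold, 3.38-fold, 4.06-fold and 4.28-fold.

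Of the 78 members 72 entered the test of knockout against control. MRPL23, MRPL38, MRPS36, MRPS17, MRPS24 and MRPS28 had means under 1 FPKM and did not. None of the 72 passed an adjusted p of 0.05 (limma), where 0.0872% of all tested genes did, and limma-voom called 1, MRPS6. At an unadjusted p under 0.05 there were 12 of 72, where 448 of all genes (3.91%) were. That count was 7 without the trend in limma's moderation, 4 by limma-voom and 3 without control 1, where all genes had 415, 372 and 1025. These 12 were MRPL14, MRPL16, MRPL2, MRPL20, MRPL41, MRPL48, MRPS22, MRPS26, MRPS34, MRPS35, MRPS6 and MRPS9, and for MRPL20, MRPL41, MRPS34 and MRPS35 the 2 groups nonetheless overlapped. The fitted difference was positive for 34 members and negative for 38, with a median of -0.26, against a median of -0.08 and 48.2% positive over all genes.

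Split by subunit, 14 small-subunit genes had a positive and 9 a negative difference, with a median of 0.31. For the large subunit 20 were positive and 29 negative, with a median of -0.28. Members with a bacterial counterpart (44 tested) had 17 positive and 27 negative differences and a median of -0.55, and mitochondrial-only members (28 tested) had 17 positive and 11 negative and a median of 0.65. With a library left out the first median ran from -1.26 (without control 1) to 0.44 (without control 2) and the second from -0.73 (without control 1) to 2.44 (without control 2). Neither subunit's median held its sign when single libraries were left out: the small subunit's ran from -0.87 without control 1 to 2.57 without control 2, and the large subunit's from -1.50 to 1.03 without the same libraries.

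**Figure D3:**
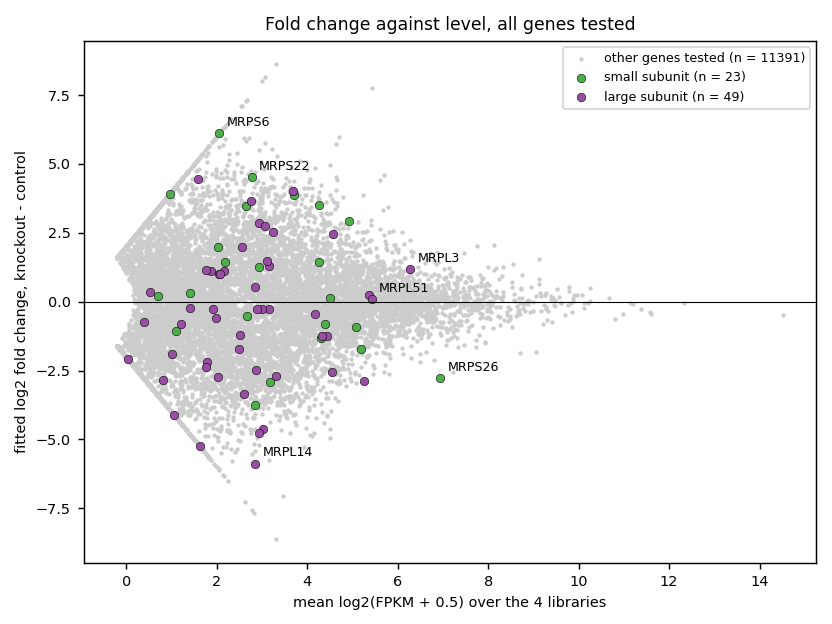
Fitted log2 difference (knockout minus control, vertical) against mean log2(FPKM + 0.5) over the 4 libraries (horizontal) for all 11463 tested genes in grey, 23 small-subunit genes in green and 49 large-subunit genes in purple. The straight edges at the left are genes listed at 0 in all libraries of a group, and MRPS26 is the most abundant member and lies below 0.

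MRPS26 (ENSG00000125901, chr20:3045945-3048254, plus strand, hg38) came closest to the threshold. It was at 379 and 274 FPKM (924 and 577 reads) in the controls and at 24.05 and 88.7 FPKM (22 and 124 reads) in the knockouts. Both controls were above both knockouts. The control mean of 326 ± 74.6 FPKM was 5.79 times the knockout mean of 56.4 ± 45.7 FPKM (SD, n = 2 each). The log2 difference was -2.79 ± 0.69 (SE), with a limma p of 0.000049 and an adjusted p of 0.0512, just outside the threshold. It passed with a pseudocount of 0.1 (limma adjusted p = 0.0395) and with a minimum mean of 5 FPKM. It also passed after TPM scaling, which gives every library the same sum (limma adjusted p = 0.0424). The FPKM sums were already close, from 357389 to 365009, so this scaling changed the libraries little against each other. It raised all values with the pseudocount unchanged, which acts much like a smaller pseudocount. MRPS26 did not pass after scaling to the median of genes above 0 in every library (limma adjusted p = 0.0527). Nor did it pass without the trend in the moderation (limma adjusted p = 0.891) or by limma-voom on recovered reads (0.995). With 1 library left out at a time the difference ran from -3.72 to -1.85, in fits with 1 sample in a group where no gene passed. None of the exons of MRPS26 overlap those of another gene.

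MRPS6, the counterpart of a bacterial protein of the platform of the small subunit, showed the opposite order. Both controls listed it at 0, and the knockouts had 29.1 and 40.4 FPKM (93 and 197 reads). In the controls 3 reads of MRPS6 would be 0.353 and 0.408 FPKM. The gene is long (chr21:34073224-34143034, plus strand, hg38), and 49.3% of its coding bases lie in exons of another gene on the same strand. No fold is given against a group at 0, because genes that every cell uses were also listed at 0 in single libraries, such as the RNA polymerase II subunit gene POLR2C in control 1 and TBP in knockout 1. The fitted value of 6.12 ± 2.59 (SE) depends on the pseudocount and did not pass (limma adjusted p = 0.955). Limma-voom on recovered reads, an alternative, called it (adjusted p = 0.0179), the only member that test called. SLC5A3, a gene within the same locus, was at 8.71 and 3.56 FPKM in the controls and at 2.66 and 2.65 FPKM in the knockouts.

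Beyond MRPS26, 10 members were lower in both knockouts than in both controls, which makes 11 of 72 where 14.4% of all tested genes were so placed. In the small subunit these were MRPS25, MRPS18B and MRPS16. MRPS25, mitochondrial only, was at 16.5 and 39.98 FPKM in the controls and at 0 and 7.21 FPKM in the knockouts. MRPS18B was at 11.5 and 50.8 FPKM in the controls and at 0.765 and 8.01 FPKM in the knockouts. MRPS16 was at 17.9 and 41.4 FPKM in the controls and at 15.0 and 15.6 FPKM in the knockouts, a difference of -0.82 on the log2 scale. The first 2 differed by -3.74 and -2.92, and none of the 3 passed the test (limma adjusted p from 0.955 to 0.963). With a library left out, MRPS25 ran from -5.71 to -1.77, MRPS18B from -4.29 to -1.54 and MRPS16 from -1.41 to -0.22.

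In the large subunit the 7 members placed below were MRPL14, MRPL55, MRPL2, MRPL16, MRPL52, MRPL50 and MRPL30. MRPL14, whose bacterial counterpart lies on the face that meets the small subunit, was at 102 and 29.5 FPKM (212 and 53 reads) in the controls and at 1.28 and 0 FPKM (1 and 0 reads) in the knockouts. Its log2 difference was -5.88 ± 2.12 (SE, limma adjusted p = 0.788), and it ran from -6.80 to -4.96 with a library left out. MRPL2, next to the peptidyl transferase centre in bacteria, was at 23.9 and 64.3 FPKM in the controls and at 3.88 and 0 FPKM in the knockouts. MRPL16, the counterpart of a bacterial protein that joins late in assembly, was at 40.3 and 38.9 FPKM in the controls and at 0 and 4.78 FPKM in the knockouts. These 3 were above 20 FPKM in both controls and below 5 FPKM in both knockouts. MRPL55 was at 19.8 and 17.3 FPKM (61 and 46 reads) in the controls and at 0 in both knockouts, where 3 reads would be 2.60 and 1.70 FPKM. MRPL52 was at 16.03 and 22.2 FPKM in the controls and at 0 and 6.79 FPKM in the knockouts. Neither MRPL55 nor MRPL52 reached 7 FPKM in a knockout. MRPL30 was at 41.9 and 22.4 FPKM in the controls and at 12.8 and 12.4 FPKM in the knockouts. MRPL50 was the least expressed of the 7, at 9.44 and 1.76 FPKM in the controls, against 0.370 and 0 FPKM in the knockouts.

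Both knockouts lay above both controls for 12 of 72 members, where 12.1% of all tested genes were so placed. In the small subunit these were MRPS6, MRPS22, MRPS14, MRPS9 and MRPS10. MRPS22, mitochondrial only, was at 0.857 and 0.990 FPKM (4 and 4 reads) in the controls and at 94.7 and 10.8 FPKM (166 and 29 reads) in the knockouts, and its log2 difference was 4.53 (2.99 to 6.06 with a library left out). The 2 controls were alike, and the knockouts differed from each other by 3.07 on the log2 scale. MRPS9, which has a bacterial counterpart whose tail reaches the P-site transfer RNA, was at 0 and 22.8 FPKM in the controls and at 82.9 and 30.1 FPKM in the knockouts. MRPS10, from the head of the small subunit, was at 0 and 6.59 FPKM in the controls and at 26.9 and 15.3 FPKM in the knockouts. MRPS14 was at 0 in both controls and at 44.8 and 0.762 FPKM (77 and 2 reads) in the knockouts, so its placing rests on 2 reads in knockout 2. For these members as for the lower ones, no adjusted p passed.

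In the large subunit the 7 members placed above were MRPL32, MRPL48, MRPL10, MRPL49, MRPL4, MRPL3 and MRPL42. MRPL3, whose bacterial counterpart reaches the peptidyl transferase centre, was at 34.7 and 75.2 FPKM in the controls and at 141 and 95.5 FPKM in the knockouts, a log2 difference of 1.17 ± 0.81 (SE). MRPL4, which lines the peptide exit tunnel in bacteria, was at 12.3 and 7.59 FPKM in the controls and at 95.0 and 31.9 FPKM in the knockouts, a log2 difference of 2.45 ± 1.28 (SE) that ran from 1.67 to 3.23 with a library left out. Both were above 0 in all 4 libraries. MRPL48 was at 0 and 20.02 FPKM in the controls and at 55.8 and 47.0 FPKM in the knockouts. MRPL10, the base of the stalk that recruits translation factors, was at 0 and 6.90 FPKM in the controls and at 30.0 and 18.4 FPKM in the knockouts. MRPL32, which is matured by a protease of the inner membrane, was at 0.338 and 0 FPKM in the controls and at 21.2 and 8.55 FPKM in the knockouts. In these 3, control 1 was at or near 0 and both knockouts were above 8 FPKM. MRPL49 was at 0.549 and 9.31 FPKM in the controls and at 15.6 and 28.7 FPKM in the knockouts. MRPL42 had the lowest mean FPKM of the 7, at 1.22 and 2.50 FPKM in the controls, against 6.4 and 3.16 FPKM in the knockouts. Its reads numbered 41 and 73 against 81 and 61, and its FPKM fits a transcript length of 15582 bases. That low level thus rests on the length and not on few reads.

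Together 23 of the 72 tested members (31.9%) had groups that did not overlap, where 26.5% of all tested genes had. ETS letters were in 5 of 10 promoter windows of members below, in 4 of 11 of members above and in 19 of 45 of members whose groups overlapped.

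**Figure D4:**
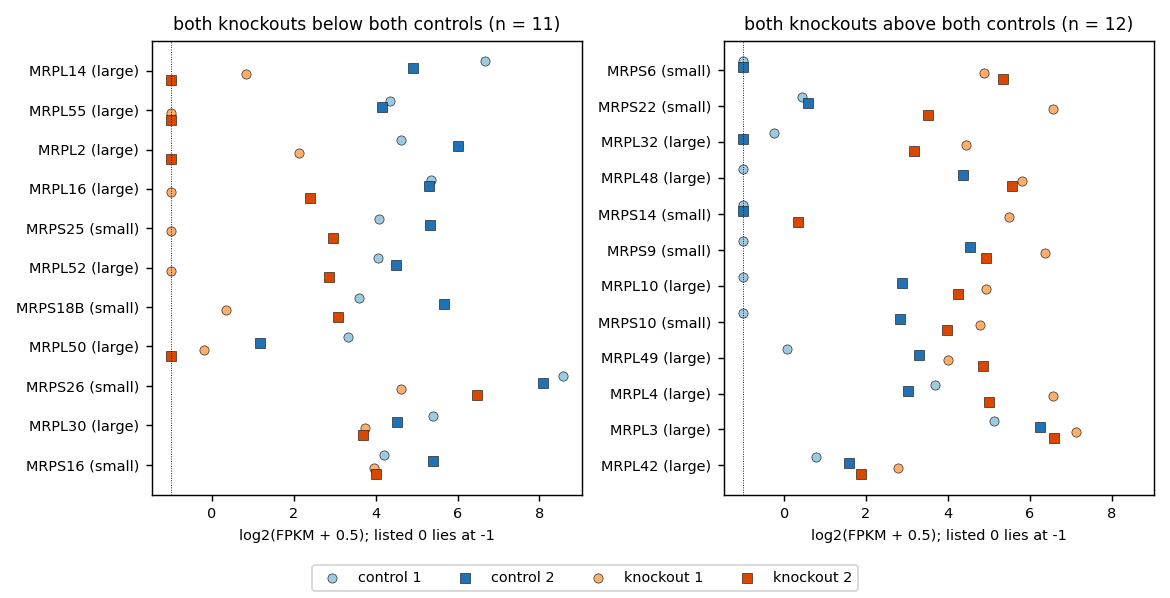
The 11 tested members lower in both knockouts than in both controls (left) and the 12 higher (right), as log2(FPKM + 0.5) with 1 symbol per library and a listed 0 at -1 (dotted line). Of the 11 on the left, 7 are at 0 in at least 1 knockout, and on the right MRPS6 and MRPS14 are at 0 in both controls.

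Members with a special place or role showed no common direction. The MRPS18 paralogs occupy different sites of the ribosome. Of these only MRPS18B had groups that did not overlap, where 26.5% of all tested genes had such groups. MRPS18A was at 1.31 and 61.9 FPKM in the controls and at 0 and 4.56 FPKM in the knockouts. MRPS18C was at 0.932 and 1.08 FPKM in the controls and at 0 and 5.52 FPKM in the knockouts. For the stalk, MRPL12 was at 2.70 and 0 FPKM in the controls and at 0 and 4.71 FPKM in the knockouts. MRPL11, at the stalk base with MRPL10, was at 19.7 and 14.3 FPKM in the controls and at 0 and 19.0 FPKM in the knockouts. So 2 of the 3 stalk genes had overlapping groups and the third, MRPL10, did not, beside that same share of 26.5% of all tested genes.

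At the decoding centre, MRPS12 was at 0.379 and 4.38 FPKM in the controls and at 26.3 and 1.98 FPKM in the knockouts. At the exit tunnel, MRPL45, which holds the ribosome to the inner membrane, was at 0.542 and 14.4 FPKM in the controls and at 10.8 and 45.9 FPKM in the knockouts. MRPL44, a protein with a ribonuclease III fold, was at 52.4 and 0.917 FPKM in the controls and at 0 and 28.1 FPKM in the knockouts. The groups overlapped for all 3. MRPL58, a peptidyl-tRNA hydrolase that frees stalled ribosomes, was at 0 and 16.8 FPKM in the controls and at 1.38 and 18.1 FPKM in the knockouts. MRPL27, whose bacterial counterpart reaches the peptidyl transferase centre, was at 0.568 and 30.0 FPKM in the controls and at 7.57 and 23.5 FPKM in the knockouts. MRPS30, placed in the large subunit despite its symbol, was at 0 and 16.9 FPKM in the controls and at 34.1 and 3.54 FPKM in the knockouts. These 3 too had overlapping groups. MRPS36, which is in neither subunit, was at 0 in 3 libraries and at 3.76 FPKM in knockout 2.

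Most members that share at least 50% of their coding sequence with another gene were low. In the GENCODE 29 annotation 8 members had that share of coding bases inside exons of another gene on the same strand, for example URGCP-MRPS24, which joins MRPS24 to its neighbour. These were MRPS28 (53.0%), MRPL46 (64.0%), MRPS24 (92.2%), MRPL38 (94.1%), MRPL30 (95.3%), MRPL12 (96.0%), and MRPS17 and MRPL53 (100% each). Of these 8, 5 were at 0 in at least 3 libraries, against 3 of the 66 members that share no coding base. The median of their means was 1.09 FPKM against 16.4 FPKM, and it was 17.1 FPKM for the 4 members that share less than 50%. The overlapping genes were low as well: for 7 of the 8 the partner was listed at 0 in all 4 libraries, and CCDC142, over MRPL53, was at most 2.89 FPKM. HTSeq by default leaves a read in exons of more than 1 gene unassigned. The setting used here is not given in the sources, and its part in these low values was not tested. Protein-coding genes at large include such overlapping partners themselves, and the share without them was not worked out. Among them 23.1% of 1251 with at least 50% shared coding bases reached a mean of 1 FPKM, against 50.2% of 17490 with none. For these 8 members a low or zero value is therefore uncertain, and MRPL30 and MRPL53 are the 2 with means above 20 FPKM.

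**Figure D5:**
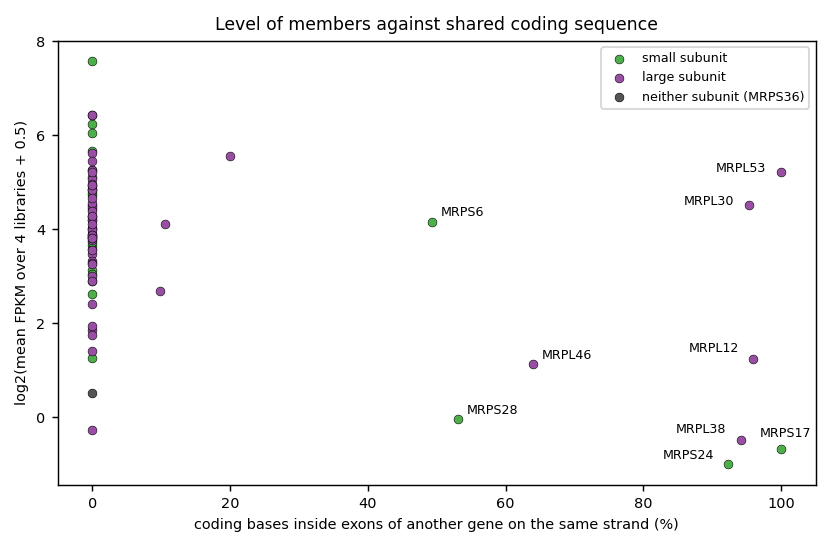
Mean level over the 4 libraries, as log2(mean FPKM + 0.5), against the percent of a member's coding bases inside exons of another gene on the same strand, for all 78 members. Of the 8 members at 50% or more, 6 lie below the bulk of the members at 0%, and MRPL30 and MRPL53 do not.

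The ribosomal RNAs around which these proteins assemble were also read, although selection for polyadenylated RNA sets how much of them is seen. MT-RNR1, the RNA of the small subunit, was at 115 and 24.7 FPKM in the controls and at 95.5 and 27.9 FPKM in the knockouts. MT-RNR2, that of the large subunit, was at 29.4 and 53.8 FPKM in the controls and at 126 and 14.5 FPKM in the knockouts. Neither passed the test. Their ratio was 3.93 and 0.458 in the controls, where the knockouts had 0.756 and 1.93, so the groups overlapped here too. Reads of processed pseudogenes were few: of 75 pseudogenes of members 3 were above 0, the highest being MRPL45P2 at 7.27 FPKM in control 2.

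The genes that build and serve the mitochondrial ribosome were read from lists chosen for their role, and none passed the test. Mitoribosomal proteins under other symbols numbered 5, with 3 positive and 2 negative differences. AURKAIP1, of the small subunit, exceeded every member on average, at 457 and 231 FPKM in the controls, against 206 and 398 FPKM in the knockouts. GADD45GIP1, of the large subunit, was at 106 and 194 FPKM in the controls and at 158 and 109 FPKM in the knockouts. DAP3, of the small subunit, was at 27.5 and 50.9 FPKM in the controls and at 39.5 and 98.4 FPKM in the knockouts. All 3 were above 20 FPKM in every library, unlike most members. PTCD3, also of the small subunit, was at 0.275 and 17.2 FPKM in the controls and at 11.2 and 6.23 FPKM in the knockouts.

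Factors for assembly and ribosomal RNA modification numbered 27, and the 23 tested had 9 positive and 14 negative differences with a median of -0.38. RCC1L, a guanine nucleotide exchange factor of large-subunit assembly, was at 24.5 and 32.3 FPKM in the controls and at 0 and 11.3 FPKM in the knockouts. MTG2, an assembly GTPase, was at 32.5 and 20.99 FPKM in the controls and at 0 and 11.8 FPKM in the knockouts. TRUB2, a pseudouridine synthase, was at 22.2 and 15.4 FPKM in the controls and at 2.15 and 1.27 FPKM in the knockouts. Of the 23 tested, 4 had both knockouts below both controls, these 3 among them, where 14.4% of all tested genes had. ERAL1, a chaperone of the small subunit's ribosomal RNA named after its values were seen, was the 1 with both above, at 0.961 and 16.1 FPKM in the controls and at 17.3 and 65.8 FPKM in the knockouts. Of 12 tested translation factors 2 had positive and 10 negative differences with a median of -1.11. Knockout 1 carried this tally: 9 of the 12 were at 0 there, and without it 7 were positive and 5 negative, with a median of 0.58. The list summed to 226 and 119 FPKM in the controls, against 12.6 and 138 FPKM in the knockouts. GFM2, which splits ribosomes for recycling, was at 17.9 and 1.15 FPKM in the controls and at 0 and 0.248 FPKM in the knockouts. MTRF1L, a release factor, was at 3.4 and 19.6 FPKM in the controls and at 0 and 1.97 FPKM in the knockouts. MTIF2, which initiates translation, was at 20.9 and 23.9 FPKM in the controls and at 5.36 and 1.91 FPKM in the knockouts. In these 3 of the 12 both knockouts lay below both controls, as in 14.4% of all tested genes. TUFM, the elongation factor, overlapped between groups, at 161 and 40.5 FPKM in the controls, against 6.54 and 63.5 FPKM in the knockouts.

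Genes for handling of mitochondrial RNA (10 tested) had 4 positive and 6 negative differences with a median of -0.13. TRMT10C, a subunit of mitochondrial ribonuclease P, was at 0 and 52.0 FPKM in the controls and at 23.7 and 16.8 FPKM in the knockouts. ELAC2, which trims the 3′ ends of mitochondrial transfer RNAs, was at 88.8 and 83.2 FPKM in the controls and at 7.91 and 68.4 FPKM in the knockouts. Without control 2 the list had 6 positive and 4 negative differences and a median of 1.10. Activators of nuclear genes for mitochondria and the organelle's own transcription machinery, POLRMT, TFAM, TFB2M and TEFM, made up a last list. Its 12 tested genes had 3 positive and 9 negative differences with a median of -0.21, and 7 positive and 5 negative with a median of 0.19 without knockout 1. Among them were both chains of the ETS factor GABP. GABPA, the chain that binds DNA, was at 15.0 and 21.7 FPKM in the controls and at 13.2 and 1.42 FPKM in the knockouts. GABPB1, the activating chain, was at 0.221 and 3.41 FPKM in the controls and at 45.8 and 19.3 FPKM in the knockouts. The groups did not overlap for either chain, and the 2 lay in opposite directions. In this list of 12 tested genes they were the 1 placed below and the 1 placed above. Of all tested genes 26.5% had groups that did not overlap.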

How the data were processed

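RNA-seq of polyadenylated RNA from 4 T24 libraries was used, 1 table per library. The authors deposited FPKM for each of 58302 Ensembl genes, on build hg38 per the submitters' processing notes and counted with HTSeq per the file names. Not given in the sources used here are the aligner, the annotation release, the strand setting and the handling of duplicates. GENCODE 29 named 58039 genes. FPKM times the length of the longest transcript gave whole reads (tolerance 0.0001) for 96.4% to 96.5% of genes above 0.

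Genes with a mean of at least 1 FPKM were tested with limma 3.58.1 in R 4.3.3 (lmFit, eBayes with trend) on log2(FPKM + 0.5), two-sided, Benjamini-Hochberg adjusted over the 11463 genes, threshold 0.05. All fold changes are on that scale, which understates changes of low genes. The median SD between replicates was 1.79. With the trend, each SE followed the spread of genes of like level more than the gene's own replicates. MRPL55, alike within each group, had an SE of 2.77. MRPL41, at 0.976 and 132 FPKM in the knockouts, had an SE of 1.06. An SE or p-value from this fit is thus no measure of a gene's own spread. The fit was also run on simulated counts whose spread between replicates was set and not taken from these libraries. That run does not show how the fit performs at the spread seen here.

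The members and lists were chosen with earlier results of these data known. Named members are those past the threshold, the 5 largest differences in each direction and subunit among non-overlapping groups, the 5 highest means in each subunit, the 5 narrowest ranges, members at 0 in a whole group or in all 4 libraries, and a set fixed for their role, the MRPS18 paralogs, MRPS6 and MRPS26 among them. Other members were named after their values were seen. Alternatives covered pseudocount, filter, scaling, moderation, threshold, replicate block, limma-voom on recovered reads, subunit assignment and leaving out each library. Shares of letters in promoters came from RefSeq windows. Tables and figures were made in Python 3.11.15 with pandas 2.3.3, numpy 2.4.6 and matplotlib 3.10.9.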

Additional observations from a re-analysis of the deposited data

How the results depend on the processing

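Each group had 2 libraries, and the median SD between replicates was 1.79 on the log2 scale. The 10 genes called over all genes became 18 at an adjusted p of 0.1, 14 with a replicate block, 0 without the trend in limma's moderation (415 at an unadjusted p under 0.05), and 0 with any 1 library left out (limma, 752 to 1025 unadjusted). No member was called in limma with the replicate block. There 12 members were at an unadjusted p under 0.05, and MRPS26 had a limma adjusted p of 0.101. MRPS26 was the 1 member called with a pseudocount of 0.1, a minimum mean of 5 FPKM, TPM scaling or an adjusted p of 0.1, and MRPS6 the 1 called by limma-voom. TPM scaling acted here much like a smaller pseudocount and is not a separate check of the scaling between libraries. Gene by gene, libraries of the same number did not deviate together (r = -0.004 over 11463 genes). Members at 0 nonetheless went with the number, 26 and 25 in the libraries numbered 1 and 12 and 12 in those numbered 2. Whether libraries of the same number share a batch was not tested. The small to large ratio differed by 0.12 between groups on the log2 scale (-0.31 to 0.55 with a library left out), by 1.26 as a mean of log2 values and by 0.92 without MRPS26, an alternative chosen after seeing the data. The difference in summed FPKM, -0.22, ran from -0.51 to 0.08 with a library left out, and that in members at 0, -0.5, from -7.5 to 6.5. IGF2BP3 ran from -5.23 to -2.55. Over 209 alternatives for 19 named members, with filter and threshold not among them, 3 passed the threshold, all for MRPS26 or MRPS6. None reversed, but all 19 had been named for groups that did not overlap. Leaving out a library or changing the pseudocount could therefore not reverse them, and the absence of reversals is no measure of stability. Leaving out libraries for the gene lists and for members by origin was also chosen after seeing the data.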
